A study of Mus musculus with 6 samples.

Results

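The potassium channel genes described here are those whose gene symbol starts with Kcn, the prefix given to potassium channel subunits. Members were the probe sets on both array types whose platform annotation gave a single such symbol. That rule used no measured value, but it was set with earlier results of these data known. This gave 167 of 45137 probe sets other than controls, 90 on array type A and 77 on array type B. They named 84 of 18193 genes, of which 23 were on both array types.

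Total RNA had been taken from the L3 to L5 levels of the lumbar spinal cord of mice on postnatal day 27, and each sample was a pool of 3 cords. Egr3-deficient pool 1 (RNA 450) and Egr3-deficient pool 2 (RNA 500) were set against 1 wild-type pool (RNA 499), and each pool was hybridised once to each array type. The labels name no allele or strain, and a remark on acclimatization stands with pool 2 and the wild-type pool but not with pool 1. The transcription factor Egr3 belongs to the immediate early genes, and its loss in mice is known to remove muscle spindles.

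Potassium channels set the resting potential of a cell and end its action potentials. Voltage-gated channels are built from alpha subunits, which form the pore, and carry auxiliary subunits that change their gating or their place in the membrane. Inward rectifiers pass potassium mainly near rest and include the channels with which glia take up potassium. Tandem-pore channels carry leak currents, and calcium- or sodium-activated channels open when those ions rise inside the cell. In the spinal cord such channels shape the firing of motor neurons and interneurons and the conduction of myelinated axons.

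Values are the authors' intensities on a linear scale, 1 for each probe set on each array. Differences below are Egr3-deficient minus wild type, the mean of the 2 pools against the single wild-type pool, on log2(intensity + 16) after quantile normalization within an array type. They understate changes of dim probe sets. A probe set was tested, or kept, where its mean reached the 40th percentile of its array type, an intensity of about 36.7 on A and 55.9 on B. A probe set is called where limma's moderated test, adjusted by the Benjamini-Hochberg method over all kept probe sets of the array type, gave an adjusted p under 0.05. With 1 residual degree of freedom the wild-type pool is assumed to vary like the other 2, and an exact permutation test of 2 pools against 1 cannot give a two-sided p under 0.333.

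Across the whole tables the median deposited intensity was 50.3 in pool 1 and 57.9 in pool 2, against 60.1 in the wild-type pool, on A, and 76.2 and 83.8 against 91.8 on B. Egr3 was not lower in both pools: it read 24.9 and 52.7 against 40.6 in wild type on A, and 210 and 107 against 75.3 on B, so the direction of every comparison rests on the labels. Markers of neurons, of astrocytes and of lumbar Hox position were measured above the filter in the wild-type pool. All 10 skeletal muscle markers on A were higher in both pools, with summed intensities of 4171 and 5273 against 168 in wild type, where 1 of the 10 reached the filter level. Liver markers on A summed to 220 and 7038 against 82.4. The ratio of 3' to 5' control signal for 18S ribosomal RNA on A was 2.27 and 1.08 against 0.0493, while for actin it was 1.37 and 1.48 against 1.37. The part of these gaps in the results below was not tested, except where a value is given beside the result.

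Of the Kcn probe sets, 39 of 90 on A (29 genes) and 51 of 77 on B (34 genes) were kept. A kept probe set was found for 53 of the 84 genes, and 10 genes had one on both array types. Genes with none were Kcna3, Kcna4, Kcna7, Kcnf1, Kcnh5, Kcnh7, Kcnq1, Kcns1 and Kcnv1 among the voltage-gated alpha subunits, and Kcne1 to Kcne4 among the auxiliary ones. The inward rectifiers Kcnj1, Kcnj2, Kcnj4, Kcnj5, Kcnj6, Kcnj8, Kcnj9 and Kcnj12 and the tandem-pore genes Kcnk3, Kcnk4, Kcnk5, Kcnk7 and Kcnk15 likewise had none. The same held for Kcnmb1, Kcnn3, Kcnn4, Kcnu1 and Kcnmb4os1.

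Of the 90 kept Kcn probe sets 3 passed the test, all on B. In the Egr3-deficient pools Kcnk12, a tandem-pore gene, and Kcns3, a silent voltage-gated subunit, rose, and Kcnq3, of the M-type channel, fell. The probe sets of Kcnk12 and Kcns3 passed the filter through the pools in which they were high, since their wild-type values lay under it, and with no filter none of the 3 was called. On A no Kcn probe set passed in either direction, where 0.0663% of all kept probe sets were called higher and 0% lower. At an unadjusted limma p under 0.05, 5 Kcn probe sets on A were higher (12.8%, against 7.93% of all kept probe sets) and 4 were lower (10.3%, against 12.7%). Among those higher on A, Kcna5 and Kcnab3 1423950_at had wild-type values under the filter level, so that share is no support for an excess either. On B, 2 of 51 were called higher (3.92%, against 1.02% of all) and 1 lower (1.96%, against 0.607%). The higher ones are those 2 that the filter admitted through the Egr3-deficient pools, so their share is no support for a Kcn excess. The unadjusted counts on B were 4 higher (7.84%, against 7.4%) and 7 lower (13.7%, against 6.83%). Among the higher ones, Kcnk12, Kcns3 1445519_at and Kcnmb4os2 had wild-type values under the filter level. The lower ones were probe sets of Kcnq3, Kcnip4, Kcnj16, Kcna1, Kcna2 and the noncoding Kcnq1ot1, with Kcna2 counted by 2 of them. That of Kcna1, 1455785_at, differed by -0.70, and by -0.01 with median centring. In bulk RNA, fewer cells of a type and less RNA per cell cannot be told apart, here or in any result below.

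By size, the Kcn counts were small on both array types. At least 2-fold in both pools, no Kcn probe set on A was higher (against 1.2% of all kept probe sets), and 2 were lower (5.13%, against 4.35%). On B, 4 were at least 2-fold higher in both pools (7.84%, against 4.27%) and 1 was at least 2-fold lower (1.96%, against 1.8%). The higher ones were Kcnip2 and the probe sets of Kcnk12, Kcns3 and Kcnmb4os2 whose wild-type values lay under the filter level. Their share is thus no support for a Kcn excess. On the same side of wild type in both pools, 13 of 39 on A were higher (33.3%, against 47.9%) and 19 lower (48.7%, against 34.8%). On B, 20 of 51 were higher (39.2%, against 38.9%) and 22 lower (43.1%, against 36.6%). The median difference was -0.12 over the kept Kcn probe sets on A, against 0.11 over all, and 0.10 on B, against 0.00 over all. With a pool left out, only 1 difference has to pass, and the filter and normalization are redone, so the counts follow another rule. Without pool 2, so with pool 1 alone, 6 Kcn probe sets on A and 7 on B were at least 2-fold lower and 2 on A at least 2-fold higher. Without pool 1, 2 on B were at least 2-fold higher. Matching shares of all kept probe sets are not given for a pool left out, so no conclusion is drawn from these counts. The median on B was -0.11 without pool 1 and 0.035 without pool 2. Both pool differences share the wild-type pool, so their agreement is not independent. With no filter, 32 of 90 on A were higher and 40 lower in both pools, and 32 and 31 of 77 on B. Over all probe sets these counts were 9662 higher and 8023 lower of 22626 on A, and 8504 and 7877 of 22511 on B.

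**Figure D1:**
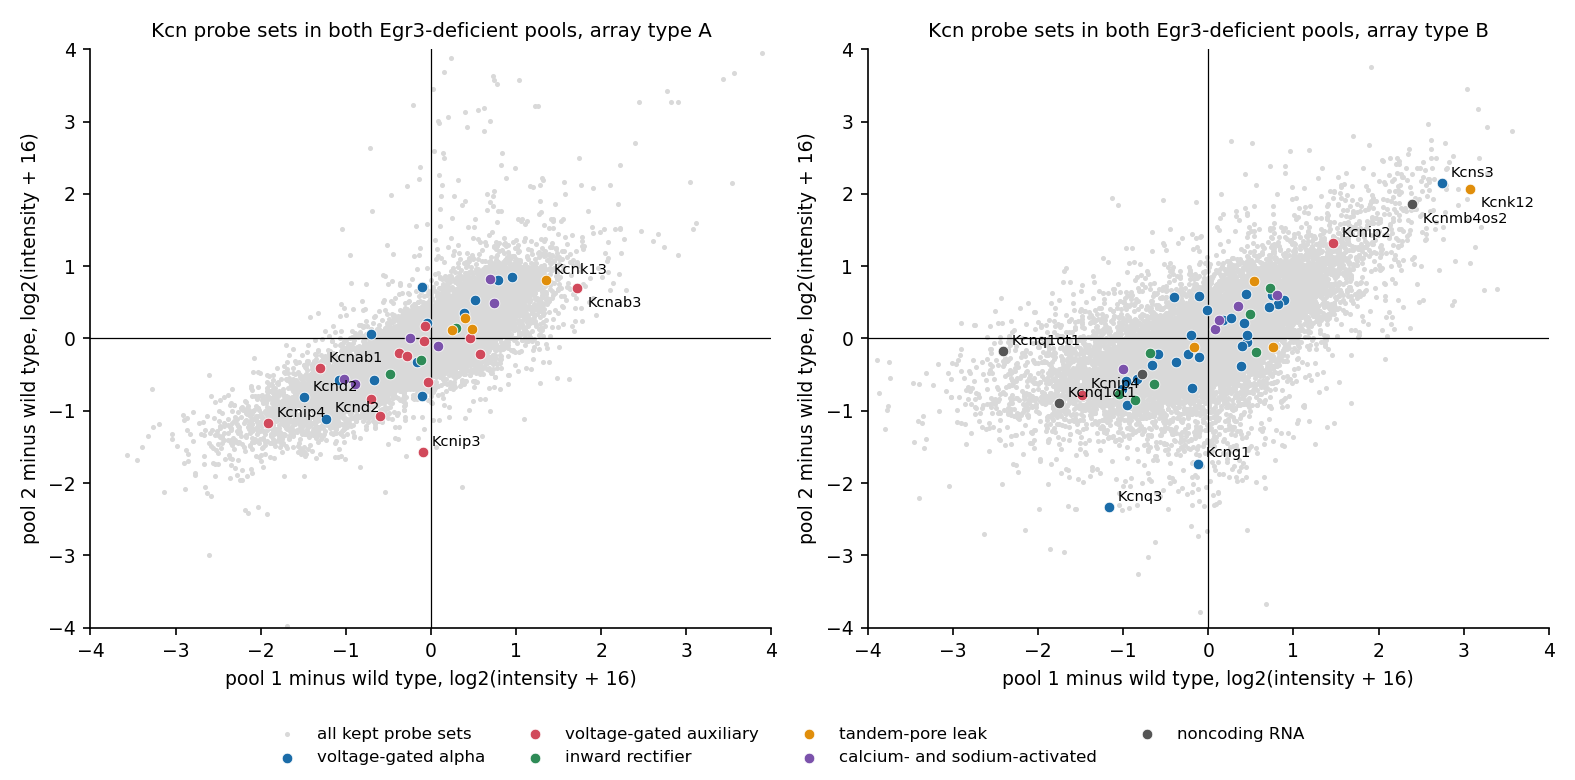
Log2 difference from wild type in Egr3-deficient pool 1 (x axis) and pool 2 (y axis) for array type A (left) and B (right), on log2(intensity + 16). Coloured points are the 39 and 51 kept Kcn probe sets by subfamily, grey points are all kept probe sets (29 on A and 3 on B lie outside the axes), and Kcn probe sets past 1.2 in either pool are named: Kcnk12, Kcns3 and Kcnmb4os2 lie at the upper right on B, and Kcnip4 and Kcnd2 at the lower left on A.

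By subfamily, the tandem-pore genes on A stood on the high side and the auxiliary subunits on A on the low side. All 4 kept tandem-pore probe sets on A were higher in both pools (median 0.33), and on B 2 of 4 were higher and 1 lower (median 0.50). Of the 2 higher on B, 1 was Kcnk12, which passed the filter through the Egr3-deficient pools, so the values on B are no support for a high side. Of the 13 auxiliary probe sets on A, 9 were lower and 2 higher in both pools (median -0.29), and the 2 on B split (median 0.13). Voltage-gated alpha subunits had 6 of 13 lower and 4 higher on A (median -0.24) and 12 of 29 lower and 10 higher on B (median 0.09). Inward rectifiers had 2 of 3 lower and 1 higher on A (median -0.21) and 4 of 7 lower and 2 higher on B (median -0.44). Calcium- and sodium-activated channels had 2 of 6 higher and 2 lower on A (median -0.07) and 4 of 5 higher and 1 lower on B (median 0.19). The noncoding RNAs, on B, had 3 of 4 lower and 1 higher (median -0.96). Wild-type values also lay under the filter level for Kcna5, Kcns3 1445519_at, Kcnab3 1423950_at, the kept Kcnn1 probe set and Kcnmb4os2. The higher counts of their subfamilies include them and are no support for a rise. These counts were not tested, and all are to be read against the medians and shares of all kept probe sets above.

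**Figure D2:**
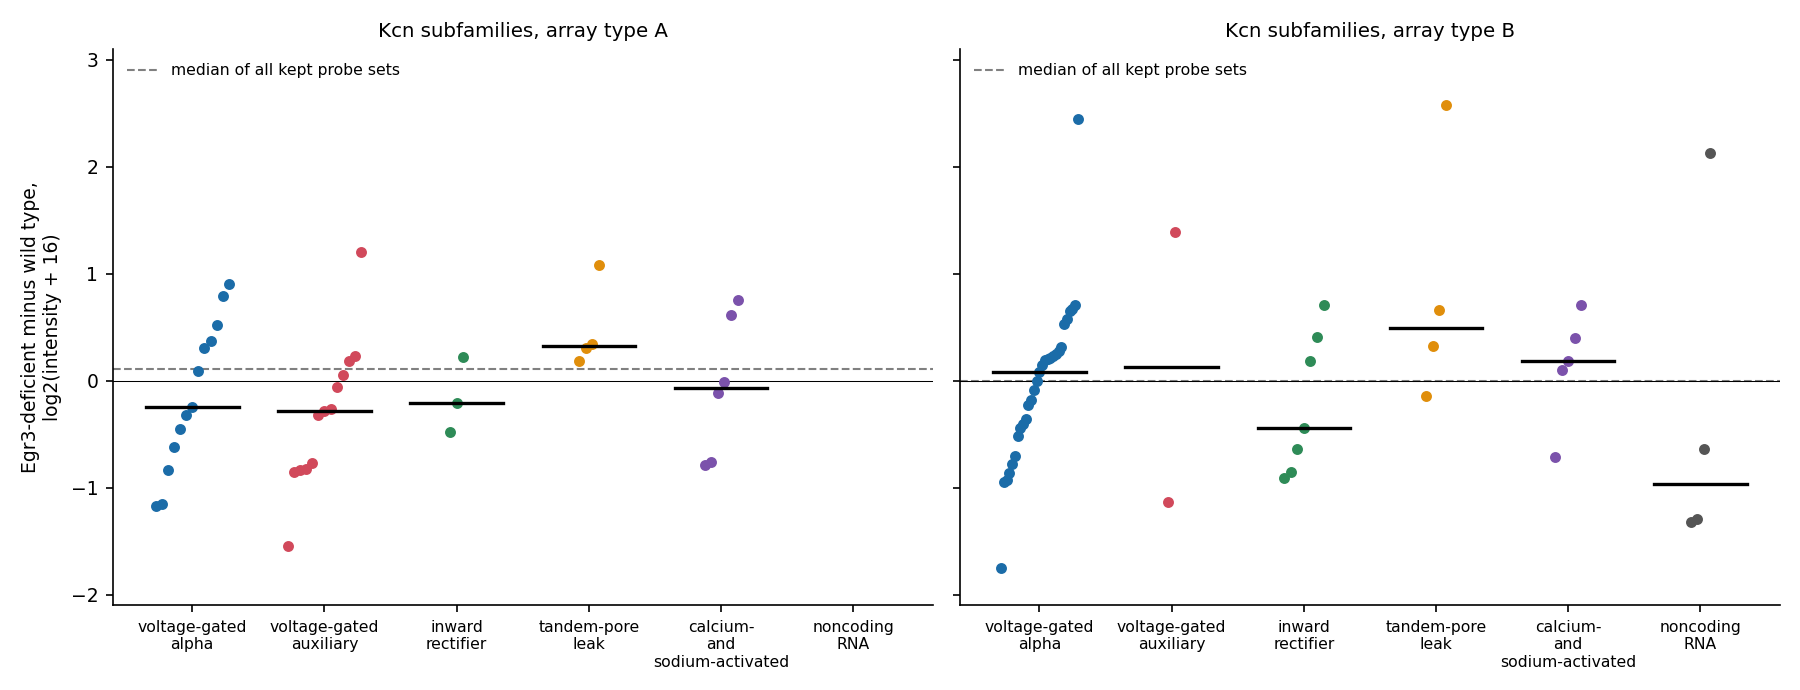
Log2 difference, Egr3-deficient minus wild type, on log2(intensity + 16) for each kept Kcn probe set, by subfamily, on array type A (left) and B (right). Black bars are subfamily medians and the dashed line is the median of all kept probe sets. The tandem-pore medians of 0.33 and 0.50 lie above it and the inward rectifier medians of -0.21 and -0.44 below it. The 0.50 includes Kcnk12, which passed the filter through the Egr3-deficient pools.

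Kcnk12 encodes a tandem-pore subunit that passes little current by itself and can join with the product of Kcnk13. Its probe set on B (1441280_at) read 421 and 196 in pools 1 and 2, against 39.6 in wild type. Both pools were well above the wild-type pool, whose value lay under the filter level, and pool 1 was the higher of them. The difference was 2.58 (SE 0.48, limma adjusted p = 0.001918), with 3.08 in pool 1 and 2.07 in pool 2. It stayed called in 5 of 9 alternative settings that allow a test, with adjusted p from 2.63e-05 to 0.4546, and lost the call where the values were not quantile normalized, not filtered, scaled on the 100 probe sets that both array types share, or fitted without an intensity trend in the prior.

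Kcns3 encodes a silent voltage-gated subunit, which forms no channel alone and alters the channels it joins. Probe set 1445519_at on B read 197 and 129, against 19.2 in wild type, again with a wild-type value under the filter level. It rose by 2.45 (SE 0.60, limma adjusted p = 0.02354) and stayed called in 4 of 8 alternatives, with adjusted p from 0.008944 to 0.4546. Without pool 1 its mean fell short of the filter. The second Kcns3 probe set, 1457799_at, read 286 and 235 against 177, a smaller difference of 0.58 on the same side (adjusted p = 0.629). The call therefore belongs to 1 of 2 probe sets. Of the related genes, Kcns2 on B differed by -0.35, and its probe set on A was not kept.

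Kcnq3 encodes a subunit of the M-type channel, a slow potassium channel that damps repetitive firing and is closed by muscarinic receptors. Probe set 1435957_at on B read 256 and 107, against 564 in wild type. Both pools were lower, pool 2 more than pool 1, by -1.17 in pool 1 and -2.34 in pool 2. It fell by 1.75 on the log2 scale (SE 0.47, limma adjusted p = 0.03797), and the call held in 3 of 9 alternatives, with adjusted p from 0.005645 to 0.4737. The other Kcnq3 probe set, 1458421_at, read 160 and 122 against 126, a difference of 0.25 on the other side (adjusted p = 0.8885). Kcnq5, the related subunit, had differences of 0.00 and -0.78 on B and was not called.

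**Figure D3:**
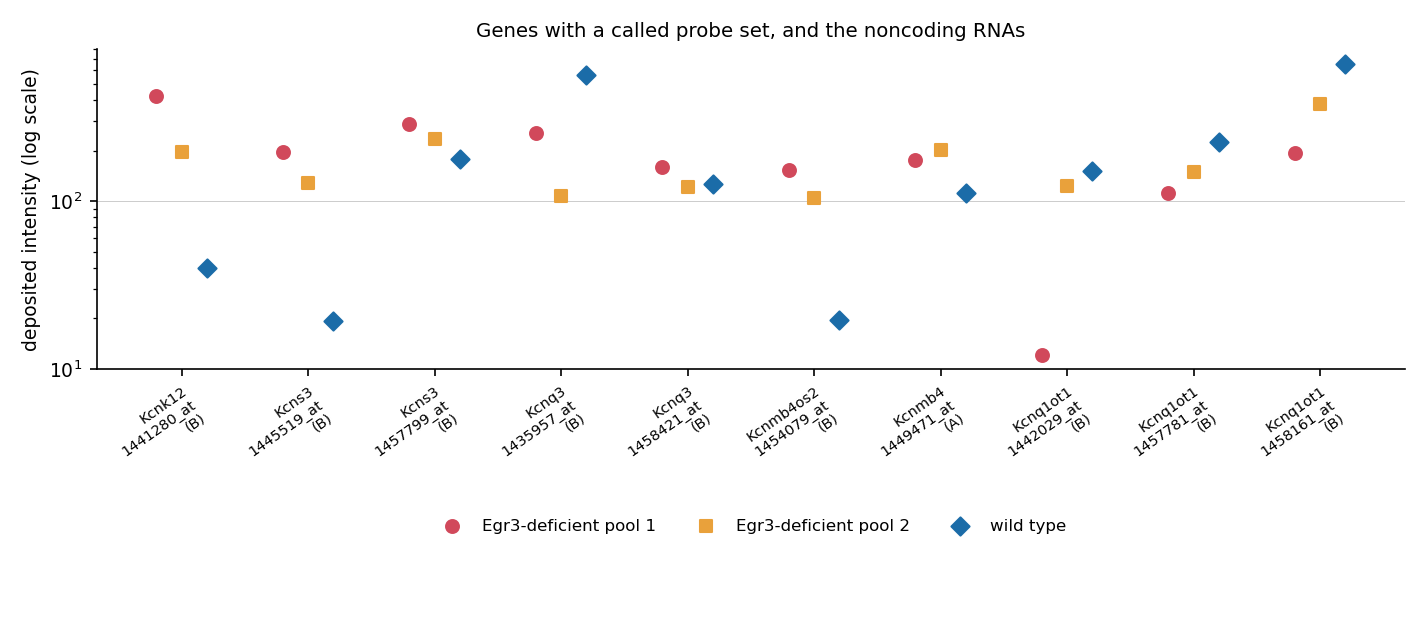
Deposited intensity (log axis) of each kept probe set of the genes with a called probe set, of the noncoding RNAs and of Kcnmb4, in Egr3-deficient pool 1 (circles), Egr3-deficient pool 2 (squares) and wild type (diamonds), with the array type in brackets. Kcnk12, the first Kcns3 probe set and Kcnmb4os2 read between 104 and 421 in both pools against 39.6 or less in wild type, and the first Kcnq3 probe set read 256 and 107 against 564.

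Since Egr3 binds DNA, the windows from 250 bases before to 50 after a gene's start in the RefSeq table (GRCm38.p6) were searched for the EGR motif GCGTGGGCG and for the looser GCGNGGGCG, on both strands, where the looser motif includes the stricter one. Of the 84 measured Kcn genes 64 matched, with 89 windows. The stricter motif was in 0 of 89 Kcn windows, against 0.612% of 32851 windows in all, and the looser one in 3 of 89 (3.37%, against 5.55% of all). Those 3 belonged to Kcnt2, Kcnk2 and Kcna4. The first 3 sequences are the 150 bases before the start of the called gene Kcnk12 and of the lower pair Kcnd2 and Kcnip4, in which neither motif occurs, and the last ones are the stretches around the matches of Kcnk2 and Kcnt2, with the match in capitals. All are RefSeq sequence of GRCm38.p6, 5′ to 3′ on the strand of the gene, at chr17:87797995-87798144 (minus strand), chr6:21215196-21215345 (plus), chr5:49285660-49285809 (minus), chr1:189343487-189343545 (minus) and chr1:140245666-140245717 (plus).
Kcnk12: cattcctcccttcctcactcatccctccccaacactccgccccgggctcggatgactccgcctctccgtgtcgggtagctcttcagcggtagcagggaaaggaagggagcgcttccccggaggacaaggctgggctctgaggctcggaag
Kcnd2: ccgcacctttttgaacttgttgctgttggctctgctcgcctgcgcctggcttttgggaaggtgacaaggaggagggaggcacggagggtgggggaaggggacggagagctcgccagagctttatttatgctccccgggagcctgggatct
Kcnip4: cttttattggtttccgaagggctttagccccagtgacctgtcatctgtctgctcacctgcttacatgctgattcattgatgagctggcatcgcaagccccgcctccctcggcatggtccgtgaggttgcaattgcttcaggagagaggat
Kcnk2: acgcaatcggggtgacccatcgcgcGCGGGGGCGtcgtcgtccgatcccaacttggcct
Kcnt2: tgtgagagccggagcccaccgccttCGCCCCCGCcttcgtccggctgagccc
A match is a run of letters and not a measured site.

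Among the voltage-gated alpha subunits, the Kcnd genes encode channels of the fast-inactivating somatodendritic current, and Kcnd2 had the 2 lowest differences among them on A. Probe set 1422835_at read 104 and 121 against 282 in wild type, a difference of -1.17 (SE 0.32), and 1450773_at read 41.7 and 85.6 against 167, a difference of -1.15 (SE 0.39). Both pools lay below wild type for each, but neither was called (limma adjusted p = 0.161 and 0.1886). The third probe set, 1422834_at, read 35.6 and 80.6 against 80.3, so that pool 2 was level with wild type (-0.32). The fourth, 1447764_at on B, was too dim to be kept and read the other way, at 31.7 and 51.1 against 8.16. Its relatives were split. Kcnd3 on B (-0.40) and Kcnd1 on A (-0.45) were lower in both pools, and Kcnd1 on B was higher in both, by 0.53 and 0.67.

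The Kcnip genes encode calcium-binding proteins that sit on Kcnd channels and bring them to the membrane. Kcnip4 was lower in both pools in all 3 of its kept probe sets. On A, 1451840_at read 44.5 and 94.9 against 237, a difference of -1.55 (SE 0.40, limma adjusted p = 0.161), and 1450370_a_at read 42.2 and 43.6 against 92.0 (-0.77, adjusted p = 0.2412). On B, 1437631_at read 278 and 472 against 739 (-1.13, adjusted p = 0.186). None was called, although 1451840_at passed with median centring (adjusted p = 0.006713), a setting in which 227 probe sets on A were called higher and 597 lower in place of 9 and 0.

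The other Kcnip genes were not of one side. Kcnip2 on B read 318 and 288 against 114, a difference of 1.39 (SE 0.45, limma adjusted p = 0.09993), and both pools lay far above wild type. With the filter at the 60th percentile Kcnip2 on B was called (limma adjusted p = 0.04108). In that setting 180 probe sets on B were called higher and 195 lower in place of 138 and 82. Its probe sets on A were too dim to be kept and read the other way, at 15.2 and 27.2 against 32.0 and at 24.8 and 23.0 against 34.15. Kcnip3 was lower in both pools on A, by -0.83 and -0.32. The larger of these rests on pool 2, since 1418544_at read 53.7 in pool 1 and 12.1 in pool 2, against 68.7 in wild type. Kcnip1 was level, at -0.06 and 0.05. Of the membrane proteins that complete these channels, Dpp10 read 317 and 295 against 575 (-0.99) and 214 and 227 against 439 (-0.98) on B, and Dpp6 read 450 and 371 against 293 (0.47) on A and 340 and 226 against 122 (1.17) on B. In the main setting none of the Kcnip and Dpp probe sets was called. Neuron markers on A, 5 of 6 of them lower and 1 higher in both pools (median difference -0.69), summed to 9003 and 10460 against 14210 in wild type. On B 3 of 5 were lower and 1 higher in both pools (median -0.41), although their deposited intensities summed to 21960 and 23290 against 20630. Their part in the lower readings was not tested.

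**Figure D4:**
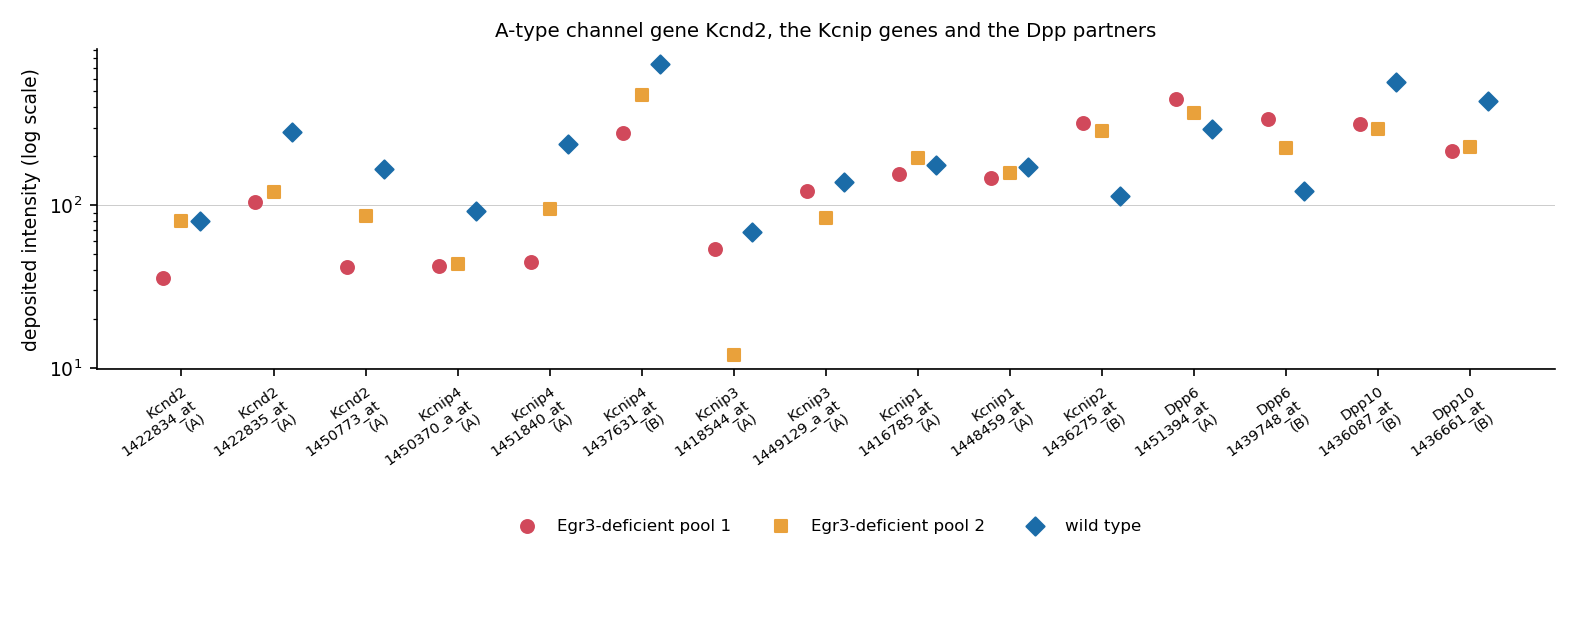
Deposited intensity (log axis) of each kept probe set of Kcnd2, the Kcnip genes and their partners Dpp6 and Dpp10 in Egr3-deficient pool 1 (circles), Egr3-deficient pool 2 (squares) and wild type (diamonds), with the array type in brackets. Kcnip4 and Dpp10 lie below wild type in both pools in each probe set, 2 of 3 Kcnd2 probe sets do so, and Kcnip2 and Dpp6 lie above it.

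Kcna1 and Kcna2 encode subunits of the low-threshold channels beside the nodes of myelinated axons. Kcna1 was lower in both pools in all 4 kept probe sets. On A it read 561 and 777 against 1118 in wild type, a difference of -0.83 (SE 0.30, limma adjusted p = 0.198). On B, 1455785_at read 3677 and 3633 against 4153 and 1437230_at read 1683 and 1787 against 1983. Those deposited values lie close together, and the differences of -0.70 and -0.51 depended on the scaling: they were -0.18 and -0.19 without quantile normalization, -0.01 and -0.02 with median centring, and -0.76 and -0.77 with scaling on shared probe sets. The fourth, 1442413_at, read 104 and 98.5 against 130 (-0.18).

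Kcna2 was lower in both pools in 3 of 4 probe sets. On B, 1439872_at read 1011 and 921 against 1518 (-0.94, limma adjusted p = 0.2136) and 1440759_at read 1441 and 1554 against 2142 (-0.86, adjusted p = 0.2369), while the dim 1457911_at read 51.2 and 128 against 89.4 with the pools on opposite sides of wild type. On A it read 51.6 and 63.9 against 106 (-0.62). For the bright probe sets on B the deposited values of the pools were close to each other and below wild type, and the differences were -0.65 and -0.51 without quantile normalization, -0.48 and -0.34 with median centring and -1.22 and -1.09 with scaling on shared probe sets. No Kcna2 probe set was called. Kcna6 was split, at -0.24 on A and 0.71 and 0.21 on B. Kcna5 on A read 46.2 and 54.3 against 24.7 (0.80, adjusted p = 0.229), with a wild-type value under the filter level.

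The beta subunits encoded by Kcnab genes bind the inner side of Kcna channels. Kcnab1 was lower in both pools in both probe sets on A, at 149 and 298 against 406 (-0.86) and at 84.4 and 106 against 128 (-0.29). Kcnab2 gave opposite readings, 571 and 401 against 402 (0.23) and 91.5 and 67.7 against 162 (-0.83). Kcnab3 did the same: 1423950_at read 100.2 and 46.0 against 22.5 (1.21) and the other probe set differed by -0.26. No Kcnab probe set was called, save Kcnab3 1423950_at with median centring (limma adjusted p = 0.02214). That probe set passed the filter through the Egr3-deficient pools, since its wild-type value lay under it. In that setting 227 probe sets on A were called higher in place of 9. Kcne1l, the only Kcne-family gene kept, read 123 and 70.0 against 86.3, with the pools on either side of wild type.

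Kcnc genes encode the high-threshold channels of fast-spiking neurons, and none of them was called. Kcnc1 on B read 2477 and 2063 against 1475 in wild type, a difference of 0.28 after normalization (SE 0.35, limma adjusted p = 0.7989), and on A 239 and 434 against 264, where the pools disagreed (0.30). Kcnc2 on B read 289 and 352 against 336 (-0.08), and Kcnc4 on A 160 and 168 against 117 (0.53). Of the ether-a-go-go family, Kcnh3 on A read 75.7 and 76.6 against 36.8 (0.90, adjusted p = 0.199), but its 2 probe sets on B differed by 0.19 and -0.23. Kcnh1 and Kcnh2 differed by between 0.09 and 0.37, and Kcnh8 by -0.44. Among the other silent subunits, Kcng1 differed by -0.93 through pool 2 alone (88.9 and 21.0 against 116), Kcng4 by 0.65, Kcng2 by 0.15 and Kcnv2 by 0.24, none called.

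Among the inward rectifiers, Kcnj10 and Kcnj16 encode the subunits of glial potassium buffering, and both were lower in both pools. Kcnj10 on A read 797 and 761 against 1033, a difference of -0.48 (SE 0.25, limma adjusted p = 0.2999), with the 2 pools almost equal. Kcnj16 on B read 313 and 383 against 611 (-0.90, adjusted p = 0.3242) and 288 and 293 against 444 (-0.63, adjusted p = 0.5681). No Kcnj probe set was called. The astrocyte markers were uneven beside them. Aqp4, the water channel of astrocyte endfeet, fell by 1.84 on B (356 and 434 against 1239, adjusted p = 0.01152), and Slc1a2, the glial glutamate transporter, fell by 1.18 on B (adjusted p = 0.04033), although its deposited intensities of 3513 and 7489 against 7384 put pool 2 level with wild type, and on A it differed by 0.05. Aldh1l1 differed by 0.90 on A, Gja1 by -0.57 on A, and Gfap differed by 0.28 on A and 0.26 on B. Summed, the 5 astrocyte markers on A read 5497 and 5779 against 6547, and the 3 on B 11450 and 11850 against 11760. Their part in the Kcnj readings was not tested.

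Kcnj3, a subunit of the channels opened by G proteins, was lower in both pools in all 3 kept probe sets, by -0.21 on A and by -0.85 and -0.44 on B. The largest of these, 1444025_at, read 69.5 and 76.9 against 160 in wild type and was not called (limma adjusted p = 0.5247). Kcnj11 is the pore of the ATP-sensitive channel, whose sensor subunit is encoded by Abcc8. On B Kcnj11 read 1070 and 921 against 536 (0.71, adjusted p = 0.4365), and Abcc8 read 69.0 and 77.1 against 33.3 on A (0.96, adjusted p = 0.1886) and 141 and 151 against 97.3 on B (0.67). Both partners were higher in both pools and neither was called. The Kcnj11 probe set on A was not kept and read 15.1 and 32.2 against 17.5. Skeletal muscle also uses Kcnj11, and the muscle marker sums on A given above were far higher in both pools. On B, where Kcnj11 was kept, the 2 muscle markers summed to 222 and 340 against 197. Their part in the reading was not tested. Kcnj8, the vascular pore subunit, was dim at 51.3 and 25.2 against 33.7 and not kept.

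The remaining inward rectifiers gave no steady side. Kcnj14 on A differed by 0.22 and Kcnj15 on B by 0.41, both higher in both pools. Kcnj13, known in choroid plexus epithelium, read 149 and 86.3 against 110 on B, so that the pools lay on opposite sides of wild type. Of the choroid plexus markers, Ttr on B read 584 and 6739 against 50.9, with its high value in pool 2, where Kcnj13 was lower. The others did not follow it: on A, Folr1 read 39.4 and 44.5 against 37.3, and Kcne2, not kept, 2.19 and 4.34 against 12.2. Liver markers on A were also highest in pool 2, as given above, and the part of either tissue was not tested.

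The other tandem-pore genes were mostly a little higher. Kcnk13, the leak channel of microglia, read 118 and 81.3 against 41.9 on A, a difference of 1.08 (SE 0.37, limma adjusted p = 0.1886), and its probe set on B was not kept (37.3 and 22.1 against 3.23). The 5 microglia markers on A summed to 1786 and 1707 against 1560, with 3 of the 5 higher and 2 lower in both pools. Among them C1qa read 361 and 291 against 211 (0.62) and P2ry12 read 42.5 and 70.8 against 157 (-1.18), and neither was called. Their part in the Kcnk13 reading was not tested. Kcnk1 read 921 and 671 against 610 (0.31) and 298 and 272 against 253 (0.18), and Kcnk2, a stretch-sensitive leak channel, read 111 and 107 against 89.4 (0.34). On B, Kcnk6 read 203 and 256 against 149 (0.67), Kcnk10 137 and 148 against 172 (-0.15), and Kcnk16 had the pools on opposite sides (0.32). Kcnk12 was the only one of these called. Kcnk3, an acid-sensitive leak channel, was not kept; its 3 probe sets on A read at most 67.7 in any pool.

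Among the calcium- and sodium-activated channels, Kcnma1, the pore of the large-conductance channel, read 56.3 and 92.3 against 149 on A (-0.79, limma adjusted p = 0.2568) and 82.7 and 93.7 against 93.0 on B (0.10). Its auxiliary subunit Kcnmb4, the main one of neurons, read 176 and 200.4 against 112 on A (0.76, SE 0.32, adjusted p = 0.2365), with both pools higher. Kcnmb2 was lower by -0.76 in 1 probe set and level in the other (-0.02). Of the small-conductance channels, Kcnn1 differed by 0.62, with a wild-type value under the filter level, and Kcnn2 by -0.12. Kcnt1, a sodium-activated channel, was higher in both pools in all 3 probe sets on B, by 0.71 (496 and 410 against 268), 0.40 and 0.19, and Kcnt2 was lower by -0.71 (45.3 and 85.0 against 128). None of these passed the test.

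The noncoding RNAs share the prefix but encode no channel. Kcnq1ot1 is a long nuclear RNA transcribed antisense to Kcnq1 that silences an imprinted region. It was lower in both pools in all 3 kept probe sets on B. Probe set 1458161_at read 193 and 377 against 657 (-1.33, SE 0.45, limma adjusted p = 0.1155), 1442029_at read 12.1 and 124 against 151 (-1.29) and 1457781_at read 112 and 149 against 224 (-0.64). Pool 1 was the lower in each, and none was called. Kcnq1 itself was not kept (6.97 and 7.64 against 12.1 on A). Other nuclear noncoding RNAs, named after their values were seen, lay on the same side: Meg3 fell in all 6 probe sets on B, with differences of -2.43 to -1.43, and the 2 Malat1 probe sets on B differed by -1.15 and -0.59. The 18S ratio given above also set both pools apart from wild type, and its part in this was not tested.

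Kcnmb4os2, an RNA annotated opposite Kcnmb4, read 152 and 104 against 19.6 on B. Both pools lay well above wild type, whose value was under the filter level, and the difference was 2.13 (SE 0.68, limma adjusted p = 0.09453). Kcnmb4 on A was also higher in both pools, as given above, by a smaller amount. Kcnmb4os1 was not kept (52 and 14.3 against 14.6).

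Of the 24 Kcn genes with several kept probe sets, 15 had the same sign in all and 9 did not. Lower in both pools in every kept probe set were 7 genes, Kcna1, Kcnab1, Kcnip3, Kcnip4, Kcnj3, Kcnj16 and Kcnq1ot1, and higher in every one were 3, Kcnk1, Kcns3 and Kcnt1. Of the 10 genes kept on both array types, 5 had the same sign throughout. The array types were hybridised with extracts of the same pools, so their agreement is not that of independent samples.

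**Figure D5:**
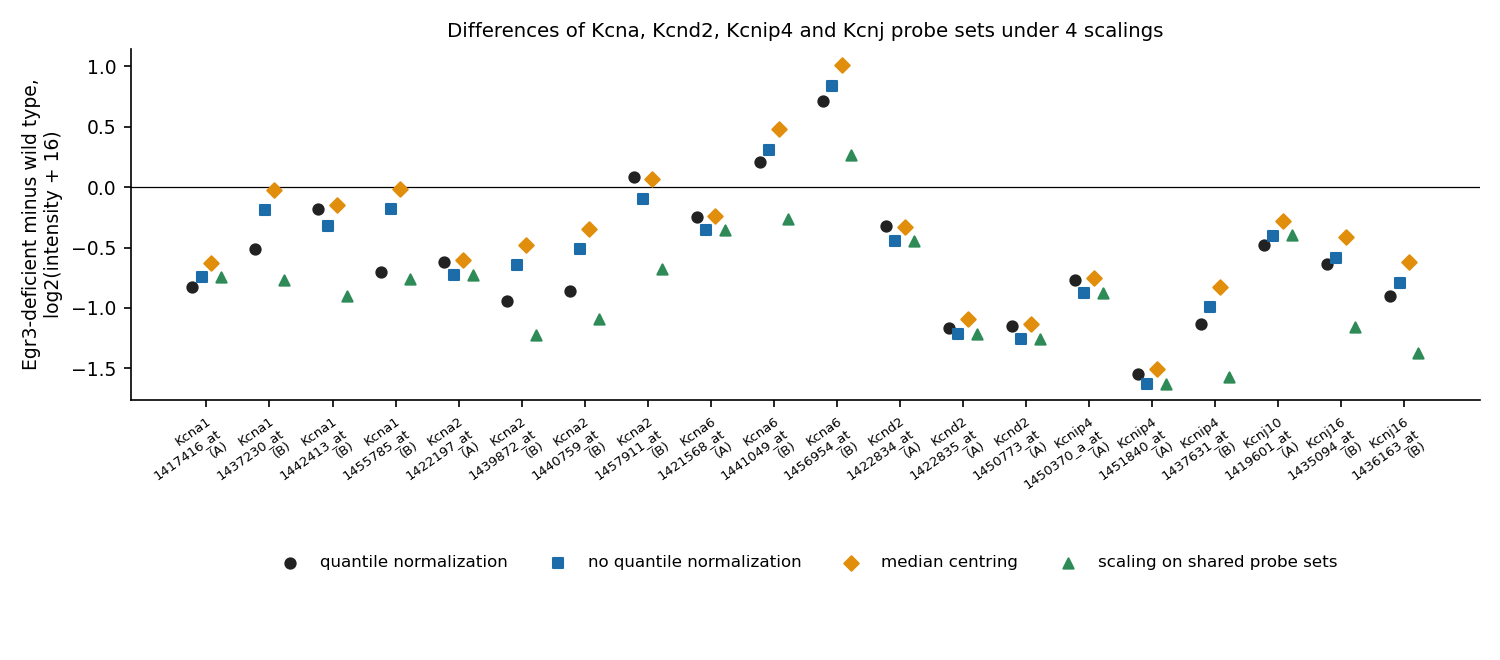
Log2 difference, Egr3-deficient minus wild type, on log2(intensity + 16) of each kept probe set of Kcna1, Kcna2, Kcna6, Kcnd2, Kcnip4, Kcnj10 and Kcnj16 with quantile normalization (circles), without it (squares), with median centring (diamonds) and scaled on the probe sets that both array types share (triangles). Kcnd2, Kcnip4, Kcnj10 and Kcnj16 stay below 0 throughout, and Kcna1 on B moves to near 0 with median centring.

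The scaling bears on B more than on A. The plot of differences under 4 scalings shows Kcnd2, Kcnip4, Kcnj10 and Kcnj16 below 0 in each. Scaling on the 100 shared probe sets, an alternative added after seeing the data, moved the median of all kept probe sets on B to -0.66 and that of the Kcn probe sets to -0.64, so the Kcn median lay close to that of all kept probe sets there. The count of Kcn probe sets at least 2-fold lower in both pools on B was then 10, in place of 1. The matching share of all kept probe sets is not given for that setting, so the count of 10 is not a result about the Kcn genes.

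Genes that Kcn channels assemble with or are anchored by, together with the related Hcn channels and their partner Pex5l, were taken from a list of 22, of which 19 were measured. On A, 11 of 18 kept probe sets were lower and 5 higher in both pools (median -0.51, against 0.11 over all), where 34.8% of all kept probe sets were lower and 47.9% higher. None was called, with 6 lower and 1 higher at an unadjusted limma p under 0.05, against 12.7% and 7.93% of all. On B, 12 of 25 were lower and 9 higher (median -0.08, against 0.00), where 36.6% and 38.9% of all were, and 1 was called lower, against 0.607% of all. That was Pex5l, which is no Kcn partner, whose probe set 1446144_at read 170 and 272 against 843 and fell by 2.02 (adjusted p = 0.009734), while its other probe sets on B differed by -0.08 and 0.11. Of the scaffold genes on A, Ank3 differed by -0.51, -0.98 and -1.20, Epb41l3 by -1.37 and -1.11, Dlg1 by -0.52 and -1.36, and Dlg4 by 0.73 and 0.28, none called. On B, Ank3 differed by 0.24, -0.34 and -0.43. Cntnap2, which holds Kcna channels beside the node, differed by 0.01 on A.

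The voltage-gated sodium (Scn) and calcium (Cacn) channel genes are set beside the Kcn genes here as counts, and the difference between the families was not tested. On A, 5 of 6 Scn probe sets were lower and none higher in both pools (median -1.09), and 7 of 13 Cacn ones were lower and 3 higher (median -0.34). On B the counts were 6 lower and 4 higher of 13 for Scn (median -0.06) and 9 lower and 7 higher of 17 for Cacn (median -0.05), with 1 Cacn probe set called higher.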

How the data were processed

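Per the file headers and values, the authors deposited 1 linear intensity for each probe set on each array. How they summarised probes is not given in any source used, and detection calls were not used. On every array the mean after a trim of 2% per tail was 150.1 (A) or 150.0 (B), so the arrays had been scaled alike. Symbols came from the platform annotation, and none differed from RefSeq. The array types were fitted apart. Intensities were taken as log2(intensity + 16), quantile normalized over the 3 arrays and filtered at the 40th percentile of the mean. Tested were 13576 probe sets (A) and 13507 (B). The fit was made in R 4.3.3 with limma 3.58.1, using lmFit and trended eBayes. Its prior carried 6.54 degrees of freedom (A) and 52.3 (B) beside 1 residual degree, so SEs rest mostly on the prior, and the number of arrays limits the precision. Pools were the samples, and nothing says whether the p-values measure more than technical spread. The labels pair no pools.

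The members, the gene lists and the subfamilies were chosen with earlier results of these data known. Named were called probe sets, those with the largest differences shared by both pools, the brightest of each subfamily and a list of common channel genes. Other Kcn genes are named to complete their subfamily. As alternatives, quantile normalization was dropped or replaced by median centring, the pseudocount was set to 1 or 64, the filter was dropped or set to the 60th percentile, eBayes was run robust or untrended, and each Egr3-deficient pool was left out. Scaling on shared probe sets was added after seeing the data.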

Additional observations from a re-analysis of the deposited data

How the results depend on the processing

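Wild type has 1 pool, so its spread is unmeasured and leaving it out leaves no comparison. Leaving out an Egr3-deficient pool leaves no residual degrees of freedom and gives values with no test. No paired analysis was possible because the labels pair no pools. Over all alternatives, single Kcn probe sets kept their sign and their side of the threshold in 895 cases, reversed in 27, lost a call in 14, gained one in 3, and moved by more than the spread between pools in 14. The cause of these shifts was not tested.

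Calls on B were lost in part: the 2 Kcn probe sets called higher became 0 with no quantile normalization, no filter, shared scaling or eBayes without trend, where all kept probe sets gave 2, 0, 0 and 0 higher calls in place of 138. The 1 called lower became 0 in those and with median centring and a pseudocount of 1. On A, 0 and 0 became 1 higher and 1 lower with median centring, where all kept probe sets gave 227 and 597 in place of 9 and 0. The count at least 2-fold higher on A, 0, was 4 with a pseudocount of 1, 1 with no filter, and 0 to 2 with a pool left out, and the count 2-fold lower, 2, was 0 with a pseudocount of 64 and 3 to 6 with a pool left out. On B the 4 at least 2-fold higher were 7 with no filter, 2 at the 60th percentile and 2 to 4 with a pool left out. The 1 lower was 0 with median centring, 2 with no filter, 10 with shared scaling and 1 to 7 with a pool left out. With a pool left out only 1 difference has to pass, so those counts follow a looser rule. Matching shares of all kept probe sets are not given for these settings, so the 2-fold counts there are not results about the Kcn genes. The Kcn median on A, -0.12, was -0.22 with no quantile normalization, -0.10 with median centring, -0.068 and -0.082 with pseudocounts of 1 and 64, -0.058 with no filter, -0.09 at the 60th percentile, -0.22 with shared scaling and -0.112 to -0.088 with a pool left out. On B, 0.10 became -0.068 with no quantile normalization, 0.19 at the 60th percentile, -0.64 with shared scaling and -0.108 to 0.035 with a pool left out.

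Of the 27 reversals, 19 came with shared scaling, most of them on B. On A, Kcnh1 became -0.026 and Kcnip1 1416785_at -0.023 with no quantile normalization, and -0.025 and -0.022 in that order with shared scaling. On B with no quantile normalization, Kcna2 1457911_at became -0.10 and Kcnma1 1440728_at -0.068. With median centring Kcnc2 became 0.10, Kcnh3 1459107_at 0.082 and Kcnq5 1441071_at 0.001, the last also 0.01 with a pseudocount of 64. With shared scaling on B, which moved all kept probe sets to a median of -0.66, Kcna2 1457911_at became -0.68, Kcna6 1441049_at -0.27, Kcnc1 1456944_at -0.38, Kcnd1 1446556_at -0.14, Kcng2 -0.55, Kcnh1 -0.20, Kcnh3 1445805_x_at -0.26, Kcnq3 1458421_at -0.44, Kcns3 1457799_at -0.066, Kcnv2 -0.53, Kcnj13 -0.53, Kcnj15 -0.35, Kcnk16 -0.40, Kcnk6 -0.008, Kcnma1 -0.64, Kcnt1 1439486_at -0.042 and Kcnt1 1441511_at -0.40.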
